A study of Mus musculus with 3 samples.

Results

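Interferon-responding lymphatic endothelial cells of the mouse small intestine were taken from 3 droplet libraries as the lymphatic cells with the most RNA of Ifit1, Ifit3 and Rsad2. They were chosen by measured counts. Barcodes with 500 or more detected genes were kept if 15% or less of their unique molecular identifiers (UMIs, each standing for 1 captured RNA molecule) were mitochondrial. A kept barcode was called lymphatic when it held at least 1 UMI of Prox1 and 5 of Lyve1, none of Ptprc or Epcam, and at most 2 of Dcn. An interferon-responding cell then held at least 4 UMIs of Ifit1, Ifit3 and Rsad2 together and fewer than 3 of Cxcl9. The rule found 3119 such cells among 17975 lymphatic cells and 24541 barcodes. They were set against the 7611 lymphatic cells of the same libraries with 0 UMIs of the 3 genes, called comparison cells here. The 7199 lymphatic cells with 1 to 3 UMIs lie between, and 46 with 4 or more UMIs held 3 or more of Cxcl9 and belong to neither class.

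All 3 libraries belong to 1 group and there was no treatment. Each was made from the small intestine, without the duodenum, of 4 pooled wild-type C57Bl/6 female mice aged 9 to 10 weeks. After the epithelium had been removed and the rest digested, live cells without CD45 and with CD31 and podoplanin on their surface were sorted and sequenced from the 3′ end of their RNA. The 4 animals of a pool cannot be told apart, and nothing in the labels says whether pools shared animals. The p-values below therefore measure only how the difference between classes within a library varied over these 3 libraries. The libraries held between 58857545 and 74571090 UMIs.

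Lymphatic endothelial cells line the vessels that carry fluid, fat and immune cells out of the intestinal wall. Cells that sense interferon of type I or type III form a complex that holds STAT2 and IRF9 and switches on genes through a DNA site called the interferon-stimulated response element. Interferon gamma, the type II interferon, acts mainly through another DNA site and switches on an overlapping set that includes Cxcl9, Ciita and MHC class II genes. Ifit1 and Ifit3 encode proteins that bind viral RNA or its partners, and Rsad2 encodes viperin, a radical-SAM enzyme that makes a chain-terminating nucleotide.

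The sequence just before the start of the 3 chosen genes is shown because it holds matches to a motif of this response element. That of Isg15, Trim30d and Igtp, whose RNA was measured independently of the choice, also holds matches and is shown as well. Some genes with larger differences held no match, as given further on. The sequences come from RefSeq promoters of the GRCm38.p6 build and end before the start site. The motif searched was TTTCNNTTTC, read on the other strand as GAAANNGAAA, over the 250 bases before each start, and the capitals mark every match. In the coordinates of that build the stretches lie at chr19:34640755-34640843 on the plus strand for Ifit1, chr19:34583343-34583446 on the plus strand for Ifit3, chr12:26456533-26456602 on the minus strand for Rsad2, chr4:156200845-156200926 on the minus strand for Isg15, chr7:104507851-104507920 on the minus strand for Trim30d and chr11:58199492-58199555 on the plus strand for Igtp.
Ifit1: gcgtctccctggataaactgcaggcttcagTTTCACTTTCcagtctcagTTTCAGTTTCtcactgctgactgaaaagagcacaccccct
Ifit3: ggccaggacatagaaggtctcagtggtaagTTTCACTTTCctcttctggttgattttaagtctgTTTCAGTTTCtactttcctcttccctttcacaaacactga
Rsad2: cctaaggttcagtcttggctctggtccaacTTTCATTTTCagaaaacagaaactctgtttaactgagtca
Isg15: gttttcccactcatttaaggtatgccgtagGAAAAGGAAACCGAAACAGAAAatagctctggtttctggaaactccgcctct
Trim30d: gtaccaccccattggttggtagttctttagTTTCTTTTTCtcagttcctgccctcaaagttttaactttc
Igtp: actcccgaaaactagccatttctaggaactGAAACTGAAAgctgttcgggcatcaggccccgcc
Ifit1 held 2 copies, ending 94 and 75 bases before the start, and Ifit3 held 2, ending 146 and 112 bases before it. Rsad2 held 1 copy, ending 110 bases before its start. Isg15 held 3 overlapping copies, the nearest ending 56 bases before the start, which run together in its line. Trim30d and Igtp held 1 copy each, ending 31 and 24 bases before their starts.

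The cells made up 21.3% of the lymphatic cells of library 1 (1184 of 5570 cells, 95% Clopper-Pearson interval 20.2 to 22.4). In library 2 they made up 17.6% (782 of 4454 cells, 16.5 to 18.7) and in library 3 14.5% (1153 of 7951 cells, 13.7 to 15.3), with a mean of 17.8% ± 3.38 (SD, n = 3). The intervals cover counting error only and did not overlap between libraries. Median depth followed the same order, with 8131, 7077.5 and 6767 UMIs per lymphatic cell. When every lymphatic cell was thinned to 3000 UMIs before the rule was applied, the shares fell to 7.11%, 6.33% and 5.12%, in the same order.

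There was no gap in the counts between interferon-responding and other cells. In library 1, 38.2% of lymphatic cells held 0 UMIs of the 3 genes, 20.8% held 1, 12.2% held 2, 7.31% held 3 and 4.76% held 4. The other libraries fell off in the same way, and the tail reached 206, 134 and 143 UMIs in 1 cell. The threshold of 4 therefore cuts the counts where they fall without a break. Whether the cells form a continuum or a mixture of states was not tested, and such low counts per cell could blur separate states. Cells just outside it, with 3 UMIs, had a median of 6.5, 5 and 6 UMIs over the 6 interferon-stimulated genes Isg15, Usp18, Oasl2, Irf7, Cmpk2 and Ifit2. Cells just inside, with 4 UMIs, had 7.5, 8 and 8.5.

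**Figure D1:**
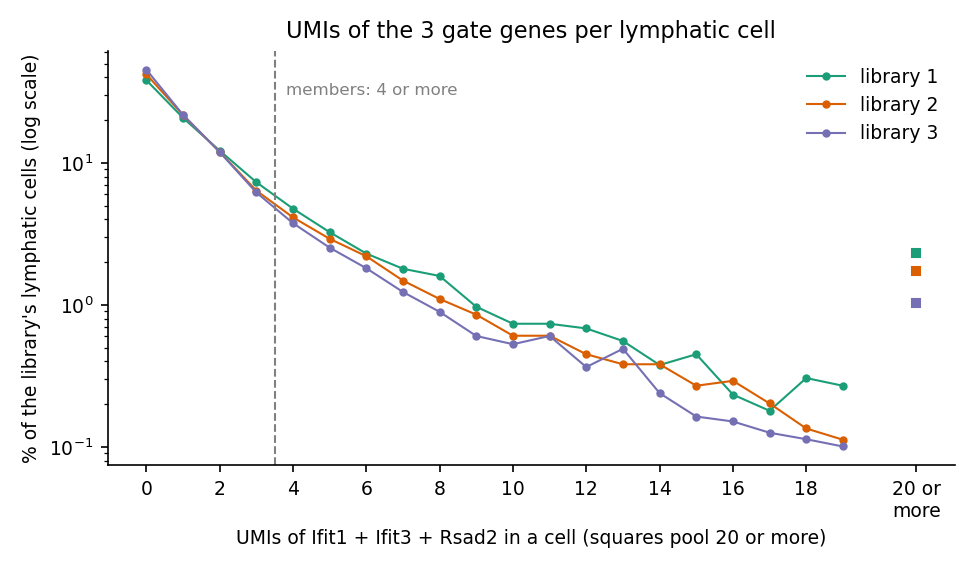
Percent of each library's lymphatic cells (y axis, log scale) by the UMIs of Ifit1, Ifit3 and Rsad2 summed in a cell (x axis, the last point pooling 20 or more), 1 line per library; the dashed line marks the member threshold. All 3 lines fall through the threshold of 4 UMIs without a gap or peak there, from 38.2% to 45.4% of cells at 0 UMIs.

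Summed over Prox1, Lyve1, Flt4, Pdpn, Ccl21a, Mmrn1 and Reln, interferon-responding cells held 17283 to 20086 CPM in the 3 libraries (UMIs scaled to 1000000 for each sum of cells) and comparison cells 17631 to 20042. Mmrn1 had 0 UMIs in both. Among 8 blood endothelial markers the sums were 112 to 195 CPM in interferon-responding and 106 to 169 in comparison cells. Markers of fibroblasts (4.00 to 22.8 against 6.81 to 27.2), macrophages or myeloid cells (at most 16.2 against at most 49.8) and T or innate lymphoid cells (29.2 to 29.7 against 31.2 to 38.2) were low in both. Of the 6 plasmacytoid dendritic cell markers, Siglech had 0 UMIs in the interferon-responding cells of every library, while the summed list stood at 1796 to 1812 CPM against 1458 to 1587. That list holds Bst2, which is itself interferon-stimulated and which comparison cells also held at 638 CPM.

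Mural and plasma cell markers differed more. Mural or smooth muscle markers summed to 10.2 to 218 CPM in interferon-responding and 11.7 to 594 in comparison cells, and B or plasma markers to 10.4 to 126 against 18.5 to 866. With 10 or more UMIs of mural, B or plasma, or epithelial markers counted as mixed, 18 interferon-responding and 40 comparison barcodes were mixed, and 1 comparison barcode of library 2 held 9373 plasma UMIs. Mixed barcodes held 1315 of the 1800 mural UMIs of interferon-responding and 9348 of the 10304 of comparison cells, and 536 of 1713 and 9719 of 12479 plasma UMIs. These barcodes were left in, and the contractile genes whose call was lost without them are given both ways. The libraries shared 19, 13 and 30 barcode sequences in pairs, and 1 of them belonged to interferon-responding cells of both libraries of its pair.

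The 3 chosen genes are described without a test. Ifit1 stood at 299, 354 and 321 CPM in the interferon-responding cells of libraries 1 to 3, Ifit3 at 201, 234 and 246, and Rsad2 at 551, 569 and 459. Rsad2 gave 52.5%, 49.2% and 44.7% of the UMIs of the 3 genes. Ifit3b, a near-identical neighbour of Ifit3 whose reads the counting could exchange with it, stood at 95.3 ± 3.79 CPM against 10.8 ± 1.17 in comparison cells (mean ± SD, n = 3 libraries). It was kept out of the test with the genes of the rule.

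Other interferon-stimulated genes were counted independently of the choice, and their UMIs were found in the same cells. Over the 6 genes named above, interferon-responding cells held a median of 14, 14 and 13 UMIs and comparison cells 2 in each library. After thinning to 3000 UMIs, which takes away the greater depth of interferon-responding cells (medians of 9197.5, 8115.5 and 7676 UMIs against 7430, 6546 and 6407), the medians were 4, 5 and 5 against 1. Of the interferon-responding cells, 1.27%, 1.53% and 1.13% held none of the 6 genes, against 18.8%, 22.7% and 18.9% of comparison cells. The groups were thus apart in their medians and overlapped at the level of single cells.

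Counts were summed per library for each class and compared with edgeR's quasi-likelihood test, the library as a block and Benjamini-Hochberg adjustment over 12273 genes. The genes of the rule and Ifit3b were not tested. At an adjusted p under 0.05, 888 genes differed, or 7.24% of those tested. Of these, 571 (4.65%) were higher and 317 (2.58%) lower in interferon-responding cells, 94 and 24 of them by more than 1 on the log2 scale. The median log2 difference of all tested genes was 0.00. Since these cells were picked for 3 genes of the same response, a higher level of a further gene says that its UMIs occurred in the picked cells more often, and no treatment separates the classes. In the fit without the library as a block, 150 genes were higher and 1 lower, and in DESeq2 254 were higher and 96 lower. Without library 2, 375 were higher and 149 lower.

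Antiviral effectors, proteins that block viral entry, replication or translation, were mostly higher. Of 37 listed genes 34 were in the files and 32 were tested, of which 28 were higher, 2 lower and 2 not called, with a median log2 difference of 0.98. Oasl1, a member of the oligoadenylate synthetase family without synthetase activity, stood at 18.3, 24.9 and 24.7 CPM against 0.675, 2.17 and 1.51 in comparison cells. Every interferon-responding value lay above every comparison value, and the fitted log2 difference was 4.01 ± 0.158 (SE, edgeR adjusted p = 3.8e-13). Oasl2, its enzymatically active relative, stood at 92.7, 98.7 and 105 against 15.2, 13.5 and 17.9, a log2 difference of 2.66 ± 0.0585 (edgeR adjusted p = 6.2e-17).

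Cmpk2, a mitochondrial nucleotide kinase encoded next to Rsad2, was at 104, 127 and 127 CPM against 23.3, 23.1 and 25.7, a log2 difference of 2.31 ± 0.0510 (edgeR adjusted p = 6.2e-17). Ifit2, a relative of the chosen Ifit genes that lies beside them on chromosome 19, was at 348, 333 and 310 against 72.3, 59.9 and 73.3. The library values of these 4 genes did not overlap between the classes. The 2 effectors that were lower moved little. Ifi27 was at 238 ± 18.2 against 271 ± 20.6 CPM and Ifitm2 at 716 ± 65.7 against 781 ± 75.9 (mean ± SD, n = 3), with overlapping library values for both. For Ifitm2 the log2 difference was 0.0040 and not called when the rule was applied to thinned cells.

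All 17 tested genes of the ISG15 and ubiquitin system were higher, with a median log2 difference of 1.05. Isg15, a ubiquitin-like protein that is attached to other proteins, stood at 1190, 1418 and 1337 CPM in interferon-responding cells and at 309, 358 and 376 in comparison cells, a log2 difference of 1.93 ± 0.0266 (SE, edgeR adjusted p = 9.4e-20). Usp18, which removes ISG15 and damps signalling at the type I receptor, stood at 84.5, 92.2 and 92.8 against 15.9, 14.4 and 17.8, or 5.56-fold. Rnf213, a large ubiquitin ligase with antimicrobial activity, was at 279 ± 5.76 against 104 ± 10.7 (mean ± SD, n = 3), or 2.70-fold. Isg15 was well above 0 in comparison cells, so these cells were not empty of it.

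**Figure D2:**
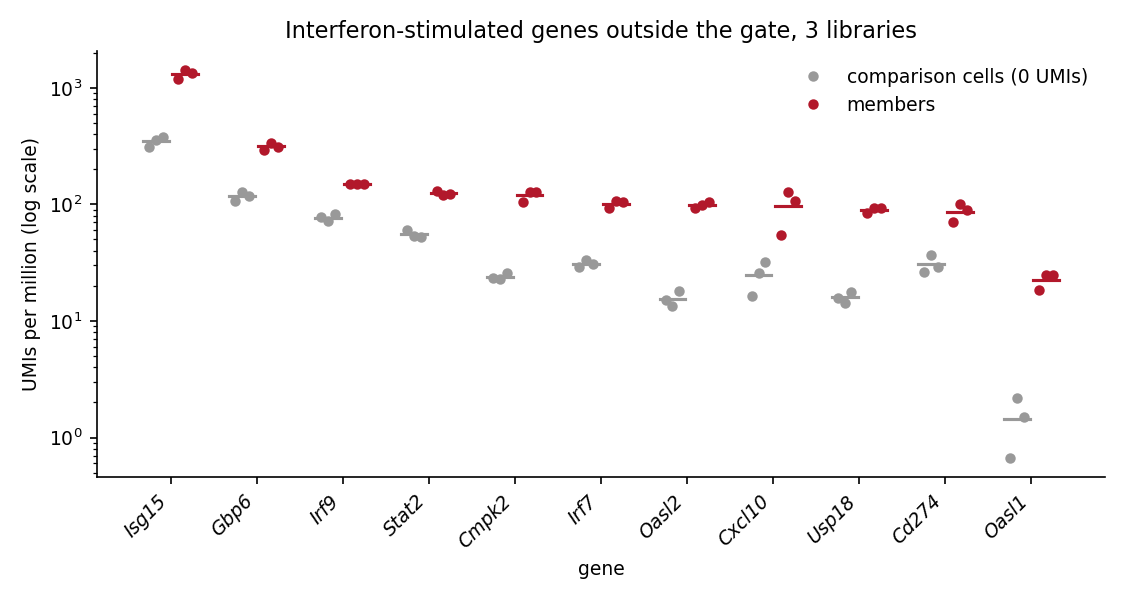
CPM (y axis, log scale) of 11 interferon-stimulated genes that were not used to choose the cells (x axis), in comparison cells (grey) and interferon-responding cells (red); each point is 1 library and each bar the mean of 3. For every gene shown the red points lie above the grey ones, with Isg15 at 1190 to 1418 against 309 to 376.

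Sensors of viral nucleic acid were higher in 9 of 12 tested genes (15 of 18 listed were in the files), with a median log2 difference of 1.12. Dhx58, which encodes the regulatory RNA helicase LGP2, was at 22.8 ± 2.43 against 5.70 ± 0.609 CPM (4.02-fold). Ifih1, the sensor MDA5, was at 145, 145 and 141 against 63.8, 56.0 and 62.6. Mndal and Ifi204, from a family of DNA-binding proteins with near-identical copies between which reads could be split, were 3.67-fold and 2.71-fold higher. Among the interferon-responding cells that lack Rsad2, described further on, neither was called (log2 differences of 0.55 and 0.42, edgeR adjusted p = 0.64 and 0.38), and 6 of the 12 sensors were higher. Cgas (8.98 ± 0.497 against 7.20 ± 0.535 CPM) and Tmem173, which encodes STING (43.0 ± 1.83 against 40.9 ± 3.20, mean ± SD, n = 3), were not called, nor was Mavs.

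Signalling genes were higher in 16 of 23 tested, lower in 1 and not called in 6, with a median log2 difference of 0.60. Stat2, a part of the type I and type III response factor, was 2.28-fold higher at 125 ± 6.17 against 55.3 ± 4.52 CPM, and its partner Irf9 1.93-fold higher at 149 ± 0.885 against 77.1 ± 5.60 (mean ± SD, n = 3). Irf7, which amplifies type I interferon production, stood at 93.0, 107 and 104 against 28.8, 33.1 and 30.6, a log2 difference of 1.73 ± 0.0453 (edgeR adjusted p = 7.6e-16). Irf1, a factor that interferon gamma strongly induces, was at 517, 633 and 658 CPM in interferon-responding cells. Its log2 difference was 0.07 ± 0.0212 (edgeR adjusted p = 0.071), and it was not called. Ciita and most tested class II genes, which interferon gamma also switches on, were called higher, as given further on. Of the inhibitors, Socs1 was 1.56-fold higher. Socs3, which is induced mainly through STAT3, was at 478, 511 and 502 against 558, 541 and 566, a small fall that did not overlap (log2 difference -0.15, edgeR adjusted p = 0.00027).

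The receptors differed little. The type I chains Ifnar1 (45.6 ± 3.41 against 48.9 ± 3.82 CPM) and Ifnar2 (230 ± 7.11 against 222 ± 3.88, mean ± SD, n = 3) were not called. Ifngr1, a chain of the interferon gamma receptor, was 1.17-fold higher at 203 ± 12.8 against 175 ± 9.90. It was not called when the rule was applied to thinned cells (log2 difference 0.048, edgeR adjusted p = 0.92) or in the cells without Rsad2 (0.028, edgeR adjusted p = 0.98). Ifnlr1, the specific chain of the type III receptor, had 2 UMIs in all interferon-responding cells together and 2 in all comparison cells, and 110 of its 151 UMIs in the files lay in cells with at least 3 UMIs of Epcam. It was not testable at this depth in lymphatic cells.

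Transcripts of the interferons themselves were nearly undetected. Of the 21 listed ligand genes none could be tested. Ifnb1 had 2 UMIs in all barcodes, both in lymphatic cells that were neither interferon-responding nor comparison cells, and Ifnl2 and Ifnl3 had 0. Interferon-responding cells held 1 UMI of the whole list, of Ifnab. Ifng had 70 UMIs, of which 57 lay in cells with Ptprc and without Prox1 and 0 in lymphatic cells. The sort left out CD45-positive cells, so immune cells were largely outside the measurement.

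The interferon-inducible GTPases, which attack the membranes around intracellular microbes, were higher in all 17 tested genes (median log2 difference 1.12, range 0.89 to 2.47). Gbp6, a guanylate-binding protein with near-identical neighbours, stood at 292, 337 and 313 CPM against 108, 127 and 118, a 2.69-fold difference. Igtp, an immunity-related GTPase, was 2.38-fold higher at 122, 181 and 150 against 51.8, 83.4 and 58.3.

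MHC class I genes, which present peptides to CD8 T cells, were higher in 21 of 24 tested, but by less (median log2 difference 0.27). Tap1, a subunit of the peptide transporter, stood at 126, 172 and 144 against 78.7, 95.2 and 81.3 CPM (1.73-fold). Psmb8, a subunit of the immunoproteasome, was 1.46-fold higher and Tap2 1.36-fold. The light chain B2m was at 3036, 3233 and 2678 against 2786, 2948 and 2467, a 1.10-fold difference whose library values overlapped (edgeR adjusted p = 1.1e-05). In each library the interferon-responding value was the higher.

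Of the class II and checkpoint list, 10 of 15 genes were tested and 8 were higher (median log2 difference 0.47). Among the higher ones were Ciita, H2-Aa, H2-Ab1, H2-Eb1 and H2-DMb1, while H2-DMa and Ctss were not called. Cd274, which encodes the T cell inhibitor PD-L1, was the most raised at 70.9, 100 and 88.8 CPM against 26.4, 36.9 and 28.8, or 2.86-fold (edgeR adjusted p = 3.5e-14). Lgals9, a galectin that acts on T cells, was 1.45-fold higher. Cd74, the invariant chain of class II, varied more between libraries than between classes, at 74.4, 248 and 195 in interferon-responding cells and 130 ± 74.3 in comparison cells (1.36-fold). The number of higher genes was 6 of 10 without the cells that held Rsad2 alone and 5 of 10 with the rule on thinned cells. In the cells without Rsad2 only Cd274 and Lgals9 were higher, or 2 of 10.

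Among chemokines and adhesion genes 5 of 16 tested were higher and 1 lower. Cxcl10, which draws T cells and is induced by all interferon types, stood at 55.0, 127 and 107 against 16.3, 25.9 and 31.9 CPM, or 3.79-fold, although the rule limits its neighbour Cxcl9. Without that limit its log2 difference was 2.58 in place of 1.92. Tnfsf10, the death ligand TRAIL, was 1.52-fold higher, and Ccl2, a monocyte chemokine, 1.29-fold. Ccl21a, the lymphatic chemokine that guides dendritic cells, was not called (10385 ± 1241 against 10490 ± 985, mean ± SD, n = 3). Copies of that gene are near-identical and its count is uncertain. Ackr3, a scavenging receptor, was lower at 309 ± 31.1 against 356 ± 39.1. With the rule on thinned cells 2 of 15 tested genes of this list were higher and 0 lower. In the cells without Rsad2 the numbers were 3 and 1 of 15.

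In the cell death list 6 of 16 tested genes were higher and none lower. Daxx, a nuclear adaptor known from death receptor signalling, was 1.93-fold higher, Mlkl, the pore-forming protein of necroptosis, 1.62-fold, and Casp4, an inflammatory caspase that senses bacterial lipopolysaccharide, 1.19-fold. The number of higher genes was 2 of 16 with the rule on thinned cells and 1 of 16, Daxx, in the cells without Rsad2, where Mlkl (edgeR adjusted p = 0.64) and Casp4 (edgeR adjusted p = 0.94) were not called. Immediate early and stress genes, which tissue digestion can induce, were higher in 5 of 25 tested and lower in none. With the rule on thinned cells 1 was higher and 4 lower, without the cells that held Rsad2 alone 3 and 3, and in the cells without Rsad2 0 and 1, so their direction depended on the choice of cells. The median log2 difference was 0.03. Fos was not called (5427 ± 834 against 5349 ± 783), and the largest difference, of Nr4a1, was 1.17-fold.

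Outside the lists the largest differences upward were of Slfn9 (3.01-fold), a member of the Schlafen family, Phf11d (2.78-fold), the tripartite motif gene Trim30d (2.74-fold), and Gm4951 (2.70-fold) and Gm4070 (2.34-fold). Phf11d stood at 140 ± 11.9 CPM against 50.5 ± 3.29 (mean ± SD, n = 3), and Trim30d at 41.1, 36.3 and 44.0 against 16.1, 13.3 and 15.3. Downward, 4 of the 5 largest were contractile genes of smooth muscle. Actg2, a smooth muscle actin, was at 1.02, 44.2 and 2.34 CPM in interferon-responding cells, so library 2 set its mean. Its log2 difference was -1.90 with all cells and 0.00 without the mixed barcodes, where it was not called. The calls of Myl9 (-1.79 with all cells, -0.02 without), Tpm2 (-1.52 and -0.20) and Acta2 (-1.48 and 0.06) were lost in the same way. Pkhd1l1, a large membrane protein, was at 20.9, 26.3 and 25.8 against 46.1, 40.9 and 40.9, and its log2 difference was -0.82 with all cells and -0.83 without the mixed barcodes.

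**Figure D3:**
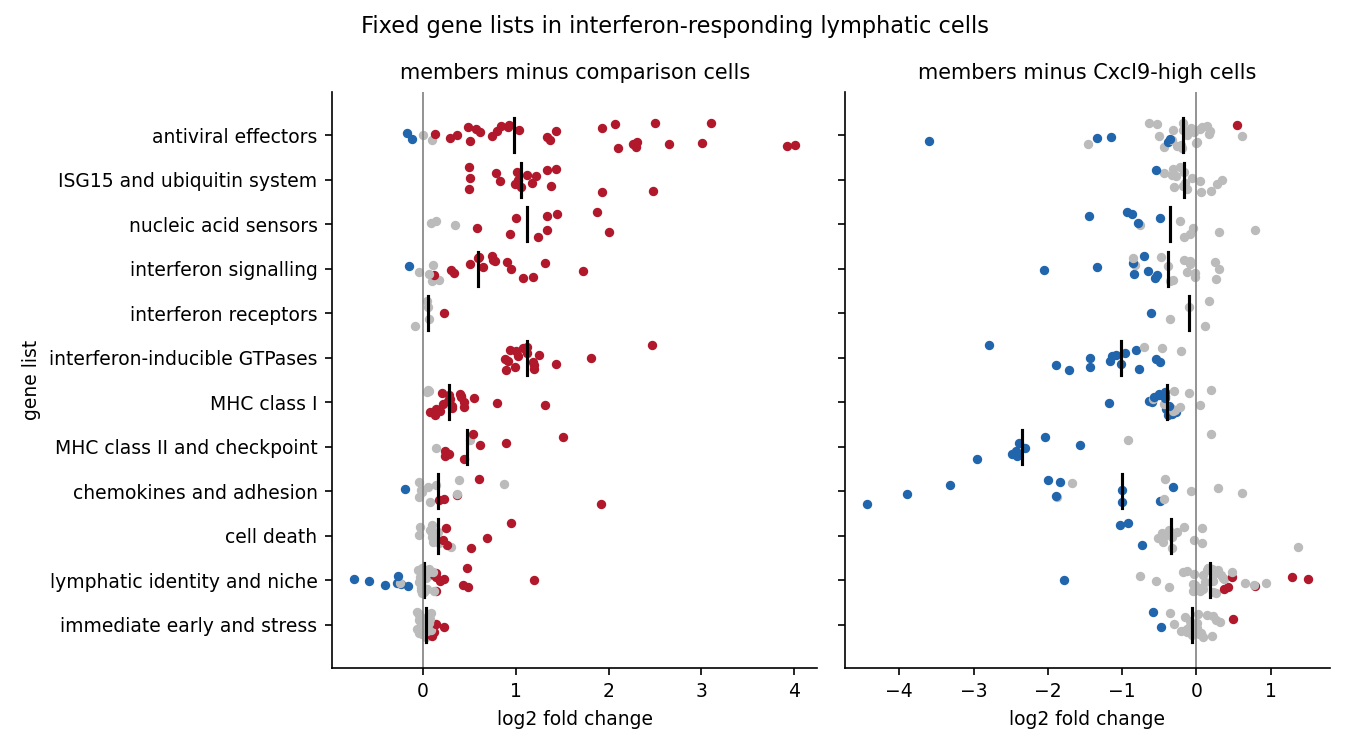
Log2 difference (x axis) of each tested gene of the gene lists (y axis), for interferon-responding minus comparison cells (left) and minus Cxcl9-high lymphatic cells (right); red points are called higher, blue lower and grey not called at an edgeR adjusted p under 0.05, and black bars are list medians. On the left the GTPases have a median of 1.12, and on the right a median of -1.01.

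The mean levels of Isg15, Irf7 and Oasl1 rose with the UMIs of the 3 genes. With the interferon-responding cells divided at 10 UMIs of the 3 genes, Isg15 stood at 348 ± 34.8 CPM in cells with 0 UMIs, 510 ± 55.2 with 1 to 3, 975 ± 108 with 4 to 9 and 2124 ± 205 with 10 or more (mean ± SD, n = 3 libraries). Irf7 stood at 30.8 ± 2.13, 45.6 ± 2.70, 76.9 ± 8.23 and 159 ± 11.4, and Oasl1 at 1.45 ± 0.751, 2.71 ± 0.565, 8.92 ± 3.83 and 55.4 ± 13.8. From the lowest to the highest class that is 6.11-fold for Isg15, 5.16-fold for Irf7 and 38.1-fold for Oasl1, but 1.11-fold for B2m. The 2 lower classes keep their cells with 3 or more UMIs of Cxcl9 (26 and 46 cells), which the rule removes from the 2 upper ones, and this bears on Cxcl10. Cxcl10 stood at 55.2 ± 10.9 at 1 to 3 UMIs, or 44.0 ± 8.24 without those cells, at 55.9 ± 26.4 at 4 to 9 and at 194 ± 118 at 10 or more. The highest class held 897 cells, or 28.8% of the interferon-responding cells. These levels are given as a description, since the classes are steps of the rule itself. Whether single cells respond by degrees or the mix of cells changes between classes was not tested.

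**Figure D4:**
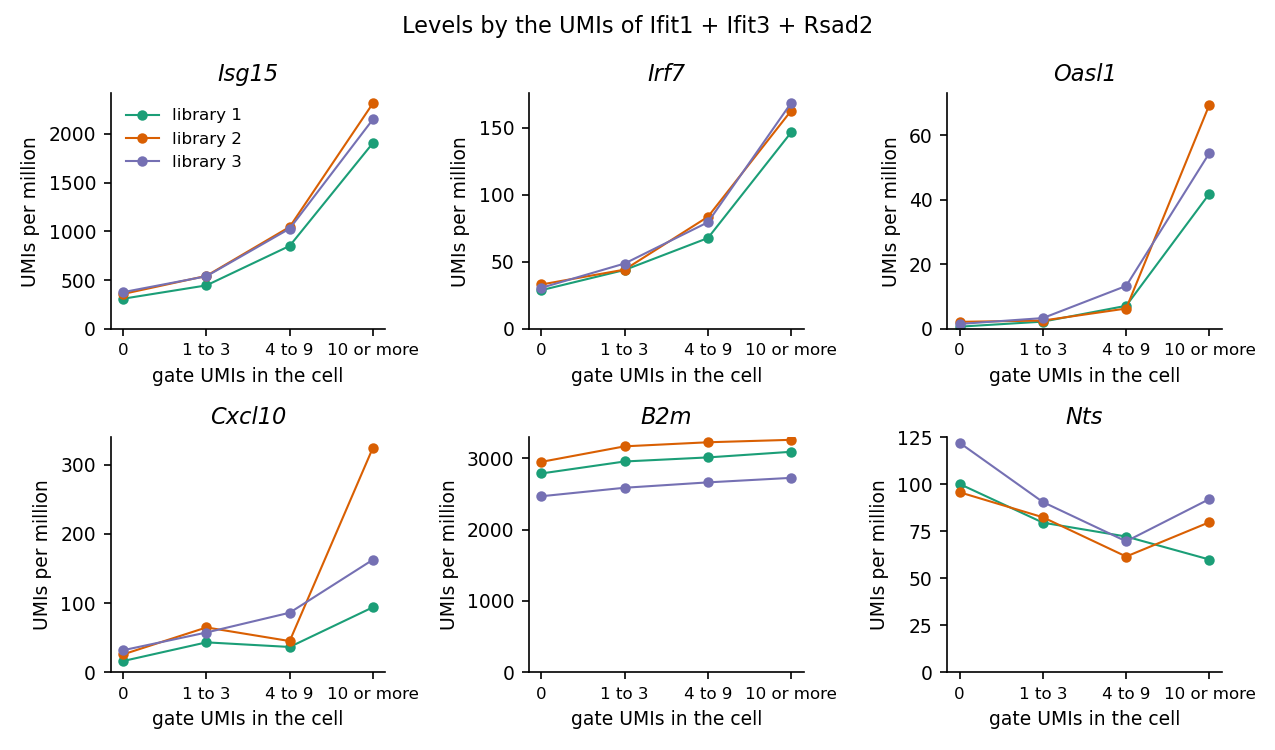
CPM (y axis, from 0) of Isg15, Irf7, Oasl1, Cxcl10, B2m and Nts in lymphatic cells grouped by their UMIs of Ifit1, Ifit3 and Rsad2 (x axis), 1 line per library; the 2 lower groups keep their Cxcl9-high cells. Isg15 and Irf7 climb at every step in all 3 libraries, while B2m spans only 2467 to 3257.

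Genes whose level over these 12 sums (3 libraries by 4 classes) was most like that of the 3 genes together were, in order of Pearson's r on log2 values, Apol10b, Apol7e, Il18bp, Arhgef16, Rtp4, Rcn1, Irf9, Gbp9, Gbp6 and Tmem229b, with r between 0.952 and 0.900. Il18bp encodes the secreted inhibitor of interleukin 18, and Rtp4 a transport protein with antiviral activity. Classes of 1 library share its pool of mice and its sequencing run, so the 12 sums are not independent and no p is given. The classes were also set by the UMIs of the 3 genes, whose absence from the lowest class is fixed by the rule. This fixed point enters r, so the order cannot say which genes follow the response most closely. From the lowest to the highest class Isg15 rose 6.11-fold and Oasl1 38.1-fold, and neither is in the list, while Irf9, at 2.33-fold, is.

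The motif of the response element stood before a larger share of the genes that were higher than of the others. It occurred before the start of 978 of the 32851 promoters in the RefSeq table (2.98%). Counted per gene, where any promoter of the gene could hold it, the share was 936 of 27025 genes (3.46%). For tested genes it was 297 of 9509 (3.12%), and the shares that follow are also per gene. Among genes with a promoter there, 63 of 453 called higher held it (13.9%), 10 of 235 called lower (4.26%) and 224 of 8821 not called (2.54%). Of the genes higher by more than 1 on the log2 scale, 31 of 70 held it (44.3%). Among others, it was not in the 250 bases before Oasl1, Oasl2, Cmpk2, Ifit2, Irf7, Irf9 or Cd274. It was there for Ifitm2, Tgfbi and Clca3a1, which were lower. Of the 65 chosen and named genes 50 matched an entry of the table, and Usp18, Gbp6 and Rspo3 were among those without one. A match is a run of letters, and binding was not measured.

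Which of the 3 genes a cell held divided the interferon-responding cells in a way that their sum hides. All 3 genes were found in 1513 cells (48.5%), Rsad2 with 1 of the other 2 in 848 (27.2%), Rsad2 alone in 308 (9.87%), and Ifit1 or Ifit3 without Rsad2 in 450 (14.4%). The cells with Rsad2 alone were no shallower, with median depths of 9604, 8685 and 8177 UMIs against 8455, 7681.5 and 7110 in those without Rsad2. Over the 6 other interferon-stimulated genes they held a median of 6, 7.5 and 5 UMIs, against 12, 11 and 13 in cells without Rsad2. The median was 10 in each library in cells with Rsad2 and 1 other gene, and 20, 20 and 18 in cells with all 3. The chosen genes themselves summed to a median of 9, 9 and 8 UMIs in cells with all 3. That sum was 6, 5 and 5 with Rsad2 alone, and 5, 4.5 and 5 in cells lacking Rsad2. Its part in the higher values of cells with all 3 was not tested. Isg15 stood at 524, 749 and 530 CPM with Rsad2 alone, at 769, 1049 and 953 with Rsad2 and 1 other gene, at 1131, 1074 and 1288 without Rsad2 and at 1623, 1870 and 1668 with all 3. Usp18 stood at 25.3, 25.5 and 15.8 with Rsad2 alone, against 69.4, 68.8 and 94.7 without Rsad2, and comparison cells held 16.0 ± 1.74. In these 2 genes the mean with Rsad2 alone lay nearer to that of comparison cells than to that of cells without Rsad2. The order differed between groups of genes. Among tested antiviral effectors, 20 of 32 were lower with Rsad2 alone than without Rsad2 in all 3 libraries and 0 were higher in all 3, and in the ISG15 system 13 of 17 were lower and 1 higher. Sensors were split, with 5 of 12 lower and 5 higher, among them Ifi204 (52.9, 54.8 and 47.4 against 32.3, 22.1 and 32.9 CPM) and Mndal (26.1, 21.7 and 23.7 against 13.5, 20.8 and 7.23). Of the GTPases 0 of 17 were lower in all 3 libraries and 2 higher, and of MHC class I 1 of 24 was lower and 6 higher. The division was made after the values were seen, and on UMIs of the rule itself. Cells with Rsad2 alone hold 0 UMIs of Ifit1 and Ifit3, and cells without Rsad2 hold at least 4 of these 2 genes. Genes that vary with Ifit1 and Ifit3 are thereby sorted towards the cells without Rsad2, and the part of this in the order was not tested. The subsets were not tested against each other.

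Genes of lymphatic identity also varied with Rsad2. Of the 38 tested genes of lymphatic identity and niche, 10 were higher, 7 lower and 21 not called in interferon-responding cells, with a median log2 difference of 0.01. Ptgs2, the prostaglandin synthase COX-2, was the most raised, at 43.9, 7.90 and 20.0 CPM against 17.7, 5.12 and 8.84 (2.30-fold), with values that overlapped between libraries. Itih5, an extracellular matrix protein, was 1.35-fold higher at 193 ± 21.3 against 144 ± 22.9, F8, coagulation factor VIII, 1.39-fold, and Rspo3, a WNT enhancer that supports crypt stem cells, 1.17-fold at 323, 335 and 318 against 280, 278 and 280. Wnt2 was not called. Lower were Tgfbi, a matrix protein, at 30.2 ± 5.18 against 51.5 ± 12.2 (log2 difference -0.74), Nts, which encodes neurotensin, at 68.3, 66.9 and 75.9 against 100, 95.8 and 122 (-0.58), and Clca3a1, at 53.7, 70.4 and 53.4 against 86.7, 93.1 and 58.9 (-0.41).

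With Rsad2 alone, Ptgs2 was at 141, 12.7 and 52.6 CPM, Itih5 at 285, 225 and 301, and Clca3a1 at 19.9, 25.5 and 29.0. In cells with Ifit1 or Ifit3 and without Rsad2, Ptgs2 was at 5.39, 3.90 and 15.8, Itih5 at 103, 117 and 128, and Clca3a1 at 89.6, 109 and 92.7. In every library the cells with Rsad2 alone were the higher for Ptgs2 and Itih5 and the lower for Clca3a1. Immediate early genes moved with the same division. Of 25 tested, 13 were higher with Rsad2 alone in all 3 libraries and 0 lower, with Egr1 at 6724, 4665 and 5703 CPM against 4928, 2939 and 4440 and Nr4a1 at 322, 264 and 304 against 200, 105 and 191. Their part in the difference of the lymphatic genes was not tested. When the fit was repeated with only the interferon-responding cells that lack Rsad2, none of the 38 lymphatic genes was called. The log2 difference then was -0.27 for Ptgs2 (edgeR adjusted p = 0.94), -0.33 for Itih5 (adjusted p = 0.084), 0.32 for Clca3a1 (adjusted p = 0.19) and 0.08 for Tgfbi (adjusted p = 0.97), each with the opposite sign to the full set. In that fit 15 of 16 GTPases, 21 of 28 antiviral effectors and 13 of 17 ISG15 system genes were higher, among them Isg15 by 1.75 (edgeR adjusted p = 2.9e-19), while 5 of 24 MHC class I genes were called higher and B2m was at -0.01. This fit on a subset chosen after the values were seen rests on 450 cells, and 110 genes were called higher and 40 lower. Leaving out only the cells with Rsad2 alone changed no call of the named genes.

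**Figure D5:**
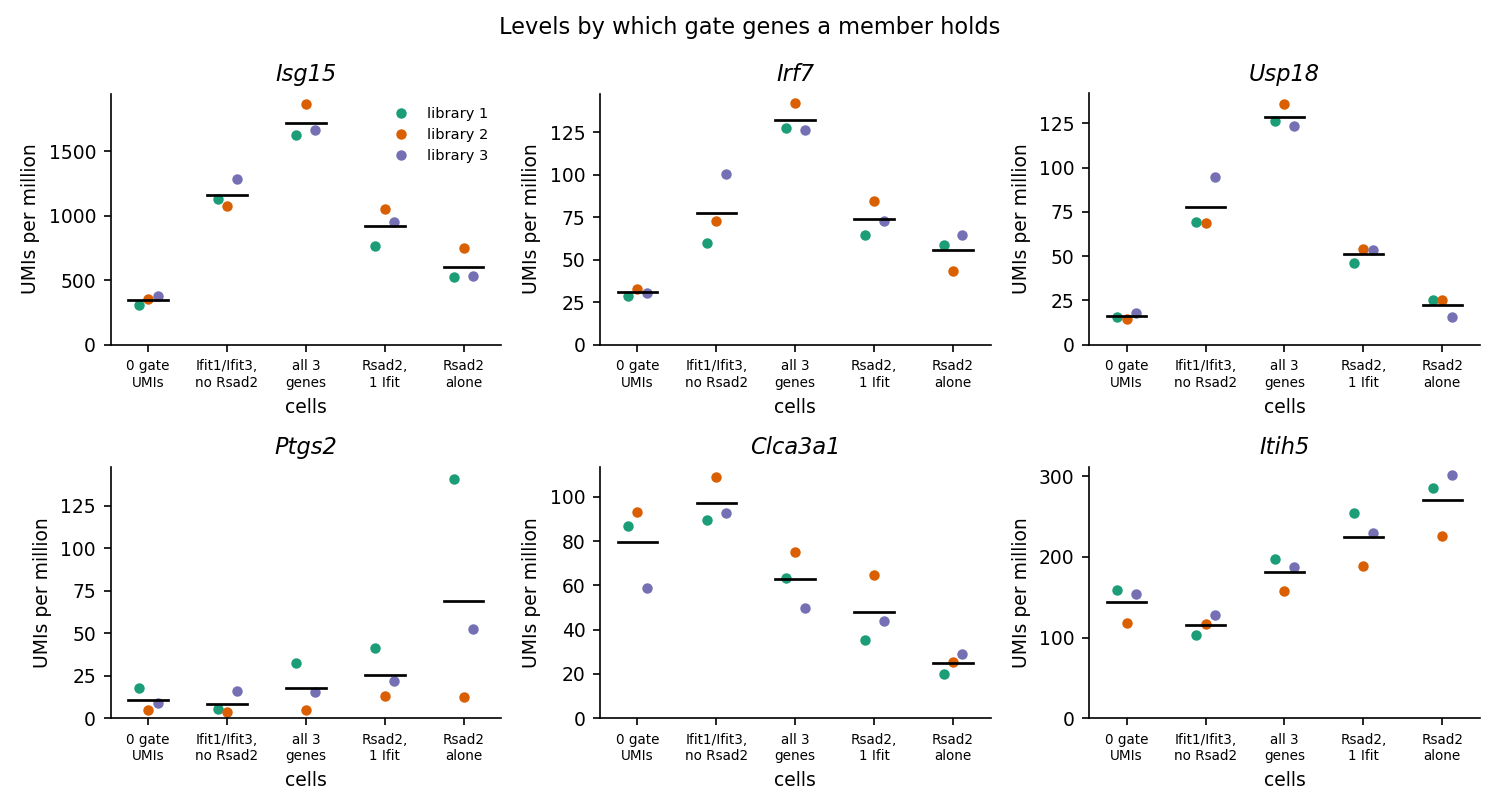
CPM (y axis, from 0) of 3 interferon-stimulated genes (Isg15, Irf7, Usp18) and 3 genes of the lymphatic list (Ptgs2, Clca3a1, Itih5) in comparison cells and in interferon-responding cells divided by the genes they held (x axis); points are libraries and bars means. Among the 4 kinds of interferon-responding cell shown, Isg15 is lowest with Rsad2 alone in each library, while Itih5 is highest there at 225 to 301.

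When both classes were chosen again after every cell had been thinned to 3000 UMIs, 17 of 17 GTPases, 17 of 17 ISG15 system genes and 27 of 31 antiviral effectors were higher. Of the lymphatic list 4 were higher and 3 lower. Ptgs2 was no longer called (log2 difference 0.27), and Clca3a1 was at 0.06. The calls of Ifngr1, Ackr3, Ccl2, Casp4, F8, Nr4a1, Egr1 and Ifitm2 were lost as well, while Nts (-0.42), Tgfbi (-0.56), Itih5 (0.23) and Pkhd1l1 (-0.56) were still called.

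The interferon-responding cells were also compared with the 118 lymphatic cells that held 3 or more UMIs of Cxcl9 (28, 32 and 58 in the libraries), 46 of which held at least 4 UMIs of the 3 genes too. Cxcl9-high cells were chosen by Cxcl9, a gene with a strong response to interferon gamma. Of 10799 genes tested, 375 differed (3.47%), with 89 higher (0.824%) and 286 lower (2.65%) in interferon-responding cells. Without library 3 these were 5 and 82. Cxcl9-high cells held 130 to 687 CPM of blood endothelial markers and 0 to 121 of fibroblast markers, more in some libraries than interferon-responding cells, and the part of those cell types in this comparison was not tested.

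Simulated log2 shifts of 0.5 were found for 6.25% of shifted genes in this fit and shifts of 1 for 56.1%, against 72.3% and 92.5% in the fit against comparison cells. A gene that was not called may therefore still differ. Genes of the ISG15 system were mostly not called, while GTPases, class II genes and Cxcl10 were lower in interferon-responding cells. Isg15 stood at 1315 ± 116 CPM in interferon-responding and 1245 ± 311 in Cxcl9-high cells (mean ± SD, n = 3), a log2 difference of 0.06 ± 0.111. Usp18 (0.20 ± 0.197), Oasl1 (-0.44 ± 0.302), Stat2 (-0.02 ± 0.150) and Irf9 (0.30 ± 0.157) were not called either, and none of the 17 ISG15 system genes was called higher and 1, Parp14, lower. Of the GTPases 14 of 17 were lower in interferon-responding cells, with a median log2 difference of -1.01. Of MHC class I 14 of 24 were lower (median -0.39), and of the class II and checkpoint list 8 of 10 (median -2.35).

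Cxcl10 stood at 55.0, 127 and 107 CPM against 3537, 1486 and 1391 in Cxcl9-high cells (log2 difference -4.44 ± 0.254, edgeR adjusted p = 1.6e-13). H2-Ab1, a class II chain, stood at 41.9, 114 and 102 against 335, 529 and 482, and Ciita, the class II activator, at 7.68 ± 3.02 against 38.9 ± 12.7. Cd274 stood at 70.9, 100 and 88.8 against 496, 273 and 285, and Irf1 at 603 ± 75.4 against 1056 ± 156, both lower in interferon-responding cells. The largest differences in that direction were of Ubd, a ubiquitin-like modifier (0.279 ± 0.242 against 36.7 ± 29.7), Calhm6, Mpeg1, Cxcl10 and Apol7c. Higher in interferon-responding cells were Stmn2 (82.9 ± 20.6 against 21.4 ± 15.9), Pmm1, Foxp2, Fxyd1 and Tgfbi (30.2 ± 5.18 against 12.4 ± 8.49). The library values of the 2 classes did not overlap for Cxcl10, H2-Ab1, Ciita or Stmn2.

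Cells of the same libraries outside the lymphatic rule also held the 3 genes. At least 4 UMIs were found in 14.3%, 25.8% and 26.1% of cells with 3 or more UMIs of Plvap, none of Prox1 and at most 2 of Lyve1, called blood endothelial here (6 of 42, 23 of 89 and 24 of 92 cells), at median depths of 5475, 6662 and 9323.5 UMIs. In epithelial cells the shares were 7.25%, 12.5% and 7.79% at depths of 22930 to 28014 UMIs, and the 3 genes summed to 31.5, 44.7 and 34.4 CPM there, against 347, 329 and 267 in all lymphatic cells. In fibroblasts 1.28%, 4.41% and 10.2% of cells reached 4 UMIs, and in immune cells 0 of 42, 6.49% and 2.48%, where 0 of 42 cells allows a share of up to 7.14% (3 counts). Blood endothelial cells stood at 275, 319 and 287 CPM of the 3 genes, fibroblasts at 44.2, 51.8 and 156 and immune cells at 13.5, 121 and 84.1. The blood endothelial class also held mural RNA, with Acta2 at 546, 1833 and 3526 CPM against 2451, 3736 and 3031 in fibroblasts. The part of those cells in its value was not tested.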

How the data were processed

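For each of the 3 libraries the authors deposited a matrix of raw UMI counts, genes by barcodes. The submitters' processing notes name bcl2fastq 2.2, Cell Ranger 6.1.2 and mm10. No source used here gives the gene annotation or how reads of near-identical genes were shared. Cells, gene lists and tests were chosen with earlier results of these data known.

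UMI counts were summed over the cells of a class in each library. The sums were tested with edgeR 4.0.16 (R 4.3.3): genes passed filterByExpr, libraries were scaled by TMM, and the quasi-likelihood F-test had the library as a block because the 2 sums of 1 library share mice and sequencing. P-values were adjusted by the Benjamini-Hochberg method (threshold 0.05). Ifit1, Ifit3, Rsad2, Cxcl9, Prox1, Lyve1, Ptprc, Epcam, Dcn and Ifit3b were left out of the test. The SE of a log2 difference is its size divided by the root of the F statistic. The fit was tested on simulated counts. No doublet caller was run, and mixed barcodes were counted by markers. Where symbols were duplicated, the identifier with the most UMIs kept the symbol. In the steps by UMIs, the 46 lymphatic cells with 4 or more UMIs of the 3 genes and 3 or more of Cxcl9 were left out.

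Named genes are, among those past the threshold with the same sign in 3 libraries and at least 20 CPM in the higher class, the 3 largest per list and direction, the 5 largest outside the lists in each direction, and a short list always named, which includes Isg15, Irf7 and Clca3a1. For Cxcl9-high cells they are the 5 largest in each direction. Further list genes were named after their values were seen. Alternatives were DESeq2 1.42.0, its size factors in edgeR, other thresholds of UMIs, depth and mitochondrial share, no filter, no block and leaving out each library. Some were added after the data were seen: the rule on thinned cells, cells with all 3 genes, cells without Rsad2 or without those holding Rsad2 alone, and no mixed barcodes. Mx1, Mx2 and Cxcl11 were not analysed here.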

Additional observations from a re-analysis of the deposited data

How the results depend on the processing

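The number of genes that differed from comparison cells was 888 (571 higher, 317 lower). It was 567 after thinning to 3000 UMIs (186 lower), 350 in DESeq2 (254 higher, 96 lower), and 151 with no replicate block (150 higher, 1 lower). Added after the data were seen, it was 333 with the rule on thinned cells (285 higher, 48 lower) and 150 in cells without Rsad2 (110 higher, 40 lower). Lower genes numbered 201 without cells with immune markers, 174 in cells with all 3 genes, and 487 with no filter on low counts. Leaving out 1 library gave 524 to 814 genes, 375 to 501 higher and 149 to 313 lower, the lowest each time without library 2. Against Cxcl9-high cells the number was 375 (89 higher, 286 lower). It was 210 in DESeq2 (24 higher, 186 lower) and 188 with no replicate block (25 higher, 163 lower), and 178 were higher with no filter. Leaving out 1 library gave 87 to 371, 5 to 93 higher and 82 to 287 lower, the lowest each time without library 3. The share of lymphatic cells, 17.8%, was 24.4% at 3 or more UMIs, 10.7% at 6 or more and 6.18% with the rule on thinned cells, and 16.0% to 19.4% without 1 library.

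In cells without Rsad2 the log2 difference changed sign for Ifitm2 (0.052), Cd74 (-0.18), Ccl2 (-0.29), Tgfbi (0.076), Clca3a1 (0.32), Ptgs2 (-0.27), Itih5 (-0.33), Klf6 (-0.043), Egr1 (-0.045), Actg2 (0.72), Myl9 (0.40), Tpm2 (0.87), Acta2 (0.66) and B2m (-0.0075), none of them called. It did so for Ifitm2 (0.0040) and Clca3a1 (0.060) with the rule on thinned cells, and for Acta2 (0.058) without mixed barcodes. In the cells without Rsad2 of libraries 1 to 3, Acta2 stood at 2.02, 500 and 7.89 CPM and Actg2 at 0, 348 and 1.97. Library 2 thus set the means of these 2 genes there. The cause of the sign changes was not tested. With no replicate block 24 of the 60 named genes tested lost their call, B2m, Nts, Tgfbi, Itih5, Ptgs2 and Clca3a1 among them.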
